A study of Mus musculus with 22 samples.

Results

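Mitochondrial biogenesis and dynamics regulators are described here in mouse kidney as a set of 10 genes: Ppargc1a, Ppargc1b, Esrra, Nrf1, Tfam, Sirt1, Sirt3, Opa1, Mfn2, and Dnm1l. The members were chosen by name with earlier results of these data known, and each of the 10 matched 1 row among the 32858 genes with a count. Their RNA was measured by RNA-Seq in the kidneys of 22 male C57Bl6/J mice, 8 to 10 weeks old, with 1 library per mouse. The labels name no engineered allele, and these kidneys belong to the experiment without tumors. The vehicle group held 5 mice, and the KW6002 group held 6 mice that received 3 mg/kg KW6002 every day from day -5 to day 7, counted from the day when cisplatin began. The cisplatin group held 5 mice given 6 daily intraperitoneal injections of 3 mg/kg cisplatin, and the cisplatin plus KW6002 group held 6 mice given both regimens. Cisplatin is a platinum chemotherapeutic that injures kidney tubules, and KW6002 (istradefylline) is an adenosine receptor antagonist used in Parkinson disease. Kidneys of cisplatin-treated mice were taken 72 hours after the last cisplatin injection, so each comparison describes a single time.

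Mitochondria are built from proteins encoded in the nucleus and in mitochondrial DNA, and their number and shape are under transcriptional and membrane control. The coactivators PGC-1α (Ppargc1a) and PGC-1β (Ppargc1b) act through factors such as ERRα (Esrra) and NRF1 (Nrf1) on nuclear genes for respiration and on Tfam, whose product packages and transcribes mitochondrial DNA. SIRT1 is a nuclear NAD-dependent deacetylase with PGC-1α among its substrates, and SIRT3 is the main deacetylase of the mitochondrial matrix. MFN2 fuses the outer membrane, OPA1 fuses the inner membrane and shapes cristae, and DRP1 (Dnm1l) divides the organelle. Proximal tubule cells are among the most mitochondria-rich cells of the body and rely on fatty acid oxidation.

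Libraries held between 26471762 and 40510754 counts, and every member was well covered, from 209 counts of Ppargc1b in its lowest library to 8049 counts of Mfn2 in its highest. All 10 members passed the filter on low counts, which 17131 genes passed. Markers of kidney were present at high level: the 7 proximal tubule markers together made up 15437.2 to 16274.1 CPM in vehicle kidneys, CPM being counts brought to a common scaled library total. Their sum was 2046.0 to 3511.6 CPM with cisplatin and 6722.9 to 10021.0 CPM with cisplatin plus KW6002. In whole kidney, fewer cells of a type and less RNA per cell cannot be told apart, and this applies to each difference below. Mouse numbers in the labels fell into a 300 series and a 500 series, whose meaning is not stated. The vehicle group had 3 mice of the 300 series and 2 of the 500 series, the KW6002 group had 3 of each, and all cisplatin-treated mice were of the 500 series.

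Promoter letters give a look at how differently these genes begin. Windows of 300 bases, from 250 before to 50 after a transcription start, were available from RefSeq (GRCm38.p6) for 9 of the 10 members, and 4 letter patterns of factors of this pathway were searched on both strands. The NRF1 pattern GCGCANGCG was in 2 of the 14 windows of members, those of Opa1 and Esrra, and in 6.25% of all 32851 windows. The GABP pattern CCGGAAG was in 3 of the 14, those of Tfam, Sirt3, and Dnm1l, and in 8.86% of all windows. The ERR pattern AAGGTCA (4.72% of all windows) and the CREB pattern TGACGTCA (1.79%) were in no member's window. The stretches around each match are printed below on the strand of the gene, because they show where in these 5 members the letters lie, with the matched letters in capitals. The run in Opa1 reads the NRF1 pattern on both strands.
Opa1, chr16:29579263-29579296, plus strand: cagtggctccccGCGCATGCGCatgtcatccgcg
Esrra, chr19:6921891-6921999, minus strand: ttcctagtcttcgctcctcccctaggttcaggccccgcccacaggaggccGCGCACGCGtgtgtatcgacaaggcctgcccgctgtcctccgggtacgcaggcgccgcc
Tfam, chr10:71238075-71238101, minus strand: ctgccgcggaCCGGAAGtccgggcttc
Sirt3, chr7:140882378-140882404, minus strand: tgctcgctcaCTTCCGGcaccgcgggc
Dnm1l, chr16:16358547-16358573, minus strand: ctgtcgcttcCTTCCGGccgctgagga
A match is a description of these letters only. The Tfam, Sirt3, and Dnm1l stretches lie over annotated exons, and no exon of the annotation overlaps the Opa1 and Esrra stretches. The Sirt3 stretch lies outside the annotated Sirt3 gene (140863666 to 140882309), so the exon there is of another annotated gene.

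In vehicle kidneys the set spanned a wide range of levels when counts were divided by the merged length of all annotated exons of a gene. The transcripts in use can be shorter than that length, so the order between genes depends in part on the annotation. Mfn2 stood highest at 40 ± 1.61 CPM per kb (SD, n = 5), followed by Esrra at 33.7 ± 3.64 CPM per kb. A middle group held Opa1 (22.2 ± 1.06 CPM per kb), Sirt3 (20.4 ± 1.39), Dnm1l (18.9 ± 1.44), and Ppargc1a (18 ± 2.59), whose neighbours in this order overlapped between libraries. Mfn2 and Esrra overlapped as well. Below them came Tfam at 12.5 ± 0.765, Sirt1 at 5.83 ± 0.462, Ppargc1b at 4.15 ± 0.468, and Nrf1 at 1.86 ± 0.0919 CPM per kb, each without overlap with the next. So by this measure the coactivator Ppargc1a was the more abundant of the PGC-1 pair, and the mitochondrial Sirt3 was the more abundant of the sirtuin pair. In cisplatin kidneys the order shifted: Dnm1l stood behind Mfn2 at 18.9 ± 0.451 CPM per kb, though it overlapped with Esrra (17.2 ± 1.57). Ppargc1b (2.27 ± 0.156) overlapped with Nrf1 (2.16 ± 0.235).

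**Figure D1:**
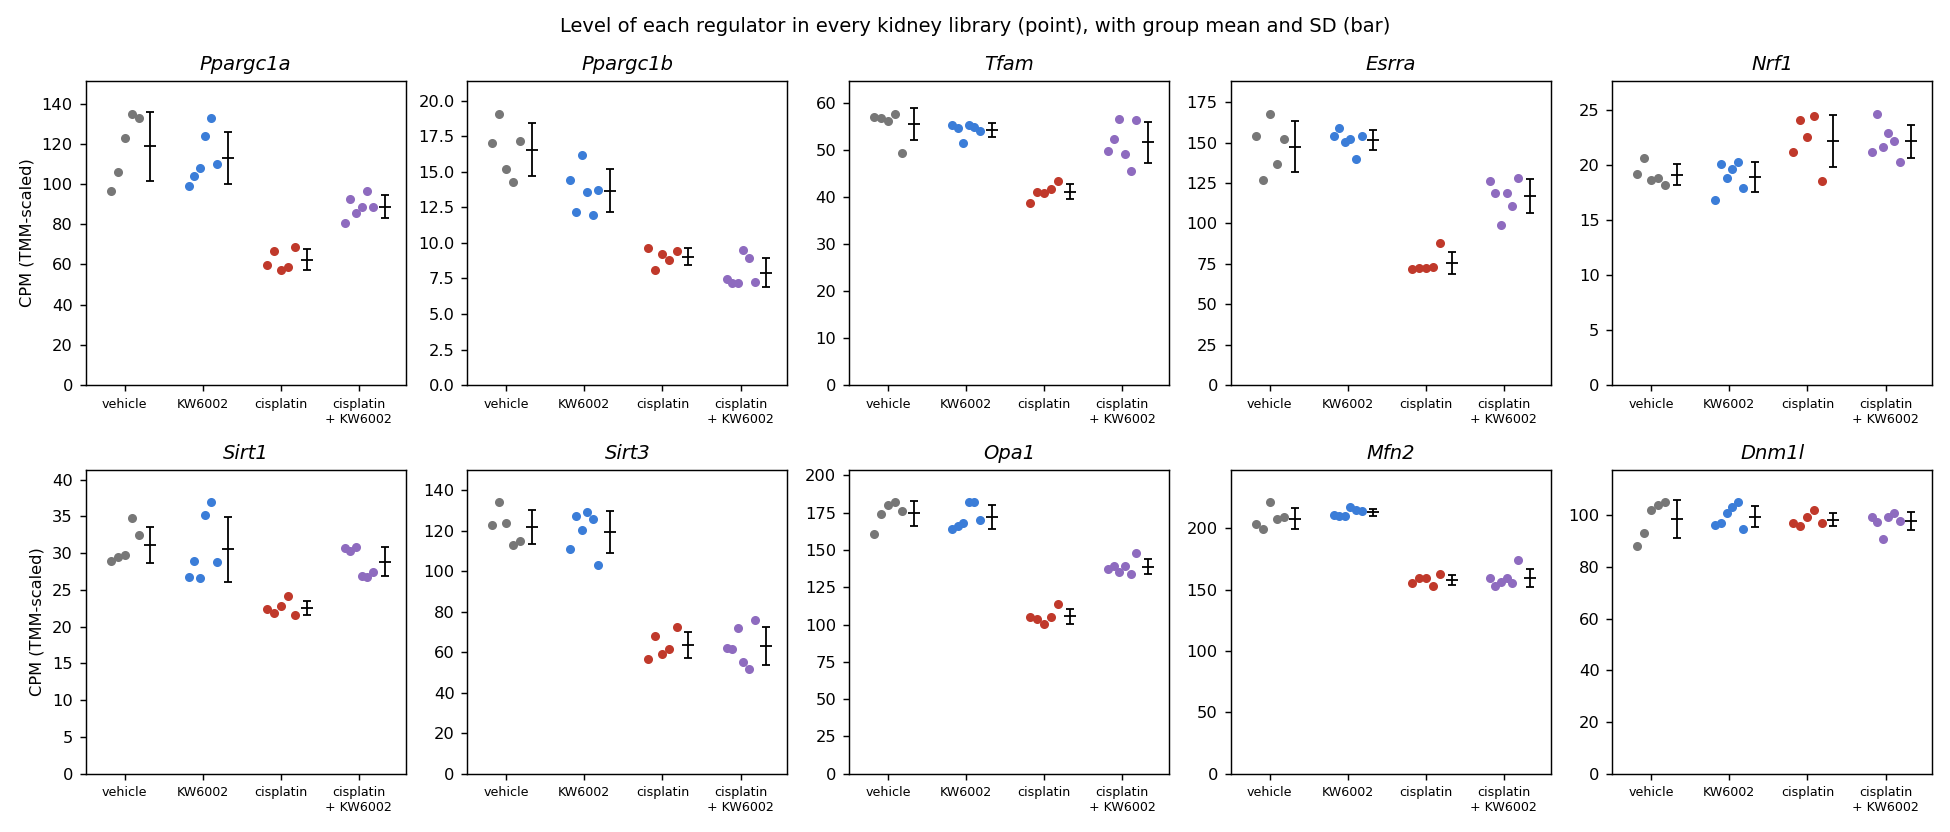
Level of each of the 10 regulators in CPM (vertical axis, from 0) in every library, by group; points are libraries and the bars at the right of each group give mean and SD. Libraries of the cisplatin group lie below all vehicle libraries for Ppargc1a, Ppargc1b, Tfam, Esrra, Sirt1, Sirt3, Opa1, and Mfn2, while those of Dnm1l lie between 95.8 and 102 CPM.

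Whether cisplatin changes this program was read from cisplatin against vehicle kidneys. Of the 10 regulators, 8 fell (Esrra, Sirt3, Ppargc1a, Ppargc1b, Opa1, Sirt1, Tfam, and Mfn2), 1 rose (Nrf1), and Dnm1l did not pass the test. The largest of these falls were those of Esrra, Sirt3, and Ppargc1a, to 51.1%, 52.2%, and 52.5% of the vehicle mean. Tests were edgeR quasi-likelihood tests with Benjamini-Hochberg adjustment over all 17131 genes, and a gene counted as changed at an adjusted p below 0.05. Cisplatin changed much of the transcriptome, with 35.9% of tested genes lower and 34.6% higher, so a call by itself is common in this comparison. Groups did not overlap for 8 of 10 members, against 55.3% of all tested genes. The median log2 fold change of the 10 members was -0.59, and that of all tested genes was -0.01. None of the 10 passed the stricter threshold of the study (adjusted p under 0.01, and a log2 change of more than 1 either way), which 24.1% of tested genes passed. Counts were scaled by TMM. Scaled by library size alone, the median of all tested genes moved to 0.20 and the split of changed genes from 5930 higher and 6155 lower to 8157 higher and 4244 lower; the 8 regulators still fell but by less, with -0.18 for Mfn2, -0.21 for Tfam, and -0.24 for Sirt1, Nrf1 was at 0.43, and Dnm1l was then higher by 0.21 on the log2 scale (adjusted p = 3.93e-04).

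The coactivators and ERRα fell to between 51.1% and 54.6% of their vehicle means. Ppargc1a (ENSMUSG00000029167, chromosome 5, 51454250 to 51567726, minus strand) stood at 96.3, 106, 123, 135, and 133 CPM in the vehicle kidneys and at 59.7, 66.7, 57.4, 58.7, and 68.9 CPM after cisplatin. Every cisplatin library lay below every vehicle library. The log2 fold change was -0.93 (SE 0.09, adjusted p = 4.06e-09 by edgeR). Ppargc1b (ENSMUSG00000033871, chromosome 18, 61298136 to 61400431, minus strand), the lower-level coactivator, had 17, 19.1, 15.2, 14.3, and 17.2 CPM with vehicle and 9.64, 8.09, 9.25, 8.77, and 9.46 CPM with cisplatin. Here too the groups were apart, with a log2 fold change of -0.87 (SE 0.10, adjusted p = 4.05e-08 by edgeR). The microRNA gene Mir378a lies inside Ppargc1b and reached at most 6 counts in a library. Esrra (ENSMUSG00000024955, chromosome 19, 6910977 to 6921813, minus strand), the orphan nuclear receptor that PGC-1 proteins coactivate, was at 154, 127, 168, 137, and 152 CPM in vehicle kidneys. After cisplatin it was at 71.7, 72.7, 72.3, 72.8, and 87.8 CPM, so 4 of the 5 libraries were nearly alike and replicate 5 stood above them. Its log2 fold change of -0.97 (SE 0.08, adjusted p = 9.66e-11 by edgeR) was the largest fall among the members, and 26.3% of tested genes had a log2 fold change at least as large in either direction. Esrra shares 73 exonic bases with Trmt112 on the other strand, and Trmt112 reached at most 456 counts.

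The DNA-binding factor Nrf1 and the mitochondrial DNA-packaging factor Tfam moved in opposite directions. Nrf1 (ENSMUSG00000058440, chromosome 6, 30047988 to 30153458, plus strand), which encodes nuclear respiratory factor 1 and not the redox factor NRF2, was at 19.2, 20.7, 18.7, 18.8, and 18.2 CPM with vehicle. After cisplatin it was at 21.2, 24.1, 22.6, 24.5, and 18.6 CPM. The groups overlapped through cisplatin replicate 5, and the rise was small (log2 fold change 0.22, SE 0.07, adjusted p = 0.0108 by edgeR). Tfam (ENSMUSG00000003923, chromosome 10, 71225464 to 71238280, minus strand) was at 57, 56.8, 56.2, 57.7, and 49.4 CPM with vehicle and at 38.7, 41.1, 40.9, 41.6, and 43.4 CPM with cisplatin. Every cisplatin library lay below every vehicle library, and the mean was 74.2% of that of vehicle (log2 fold change -0.43, SE 0.06, adjusted p = 3.20e-07 by edgeR).

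Both sirtuins fell, the mitochondrial one by more. Sirt1 (ENSMUSG00000020063, chromosome 10, 63319005 to 63381704, minus strand) was at 28.9, 29.5, 29.7, 34.7, and 32.5 CPM with vehicle and at 22.4, 21.9, 22.8, 24.1, and 21.6 CPM with cisplatin. The groups did not overlap, and the log2 fold change was -0.46 (SE 0.08, adjusted p = 2.93e-05 by edgeR). Sirt3 (ENSMUSG00000025486, chromosome 7, 140863666 to 140882309, minus strand) was at 123, 134, 124, 113, and 115 CPM with vehicle and at 56.4, 68.2, 59.3, 61.4, and 72.3 CPM with cisplatin. Its log2 fold change was -0.94 (SE 0.09, adjusted p = 5.50e-09 by edgeR), again without overlap. Sirt3 shares 418 exonic bases with Ric8a and 342 with Psmd13 on the other strand, and whether the counting used strand is not given in the sources used here. Ric8a and Psmd13 rose in the same comparison, by 0.43 and 0.34 on the log2 scale. Whether the shared bases affect the Sirt3 value was not tested.

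Of the dynamics genes, those for fusion fell and the gene for fission did not pass the test. Opa1 (ENSMUSG00000038084, chromosome 16, 29579334 to 29654884, plus strand) was at 161, 174, 180.5, 182, and 176 CPM with vehicle and at 105, 104, 100.4, 105, and 114 CPM with cisplatin. With little spread in either group, its fall had the smallest p of the set (log2 fold change -0.72, SE 0.05, adjusted p = 2.56e-12 by edgeR). Mfn2 (ENSMUSG00000029020, chromosome 4, 147873599 to 147904704, minus strand) was at 203, 199, 221, 207, and 209 CPM with vehicle and at 155, 159, 159, 153, and 163 CPM with cisplatin. Its fall was smaller (log2 fold change -0.40, SE 0.04, adjusted p = 6.89e-09 by edgeR) and also without overlap. Dnm1l (ENSMUSG00000022789, chromosome 16, 16312230 to 16358959, minus strand) was at 88.2, 93.1, 102, 104, and 105 CPM with vehicle and at 97, 95.8, 99.5, 102, and 97 CPM with cisplatin. All cisplatin libraries lay inside the vehicle range. The log2 fold change was -0.01 with a 95% interval from -0.11 to 0.09 (adjusted p = 0.925 by edgeR), taken from the SE with 18 residual degrees of freedom.

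**Figure D2:**
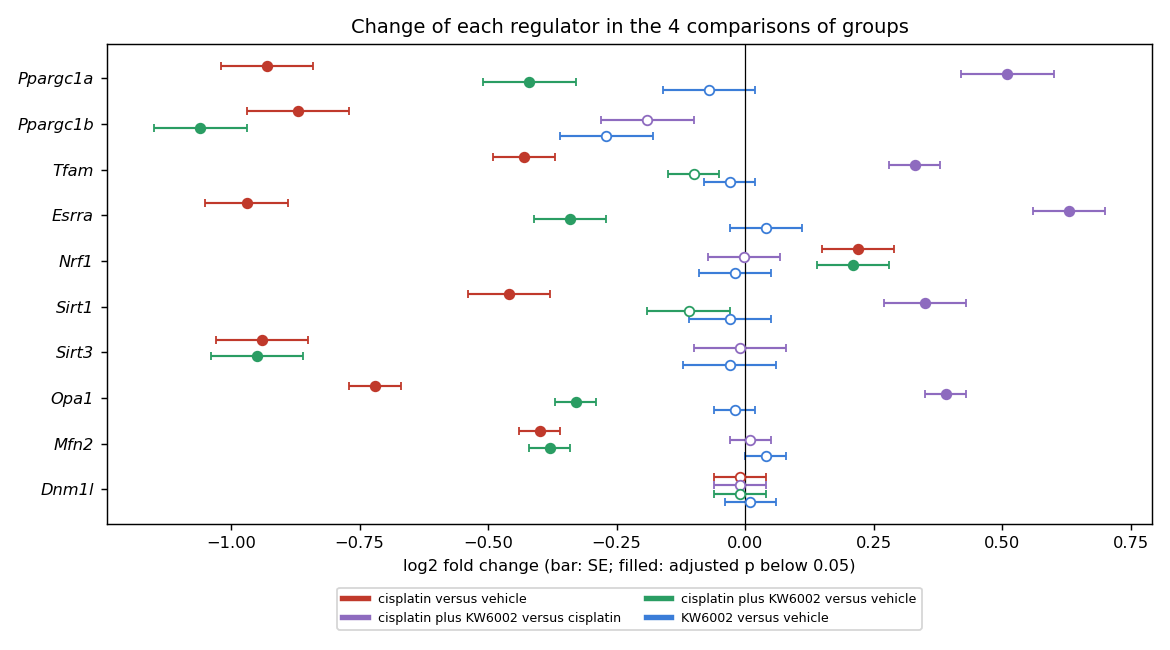
Log2 fold change of each regulator (horizontal axis; bars are SE, filled points have an adjusted p below 0.05) in the 4 comparisons between groups. With KW6002 added to cisplatin, Ppargc1a, Tfam, Esrra, Sirt1, and Opa1 moved up by 0.33 to 0.63, whereas Mfn2 lies at 0.01 and Nrf1, Sirt3, and Dnm1l lie just below 0.

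Adding KW6002 to cisplatin divided the set evenly. Of the 10 regulators, 5 were higher with cisplatin plus KW6002 than with cisplatin alone (Esrra, Ppargc1a, Opa1, Sirt1, and Tfam) and none was lower, against 28.6% of tested genes higher and 27.2% lower. The other 5 did not pass the test: Ppargc1b, Nrf1, Sirt3, Mfn2, and Dnm1l. The same 5 that rose were those without overlap between groups, as were 37.8% of all tested genes. No member passed the stricter threshold, which 10.3% of tested genes passed. Against vehicle, 6 regulators remained lower with cisplatin plus KW6002 (Ppargc1b, Sirt3, Ppargc1a, Mfn2, Esrra, and Opa1) and Nrf1 was higher, where 29.9% of tested genes were lower and 29.8% higher. Both comparisons use the cisplatin plus KW6002 libraries, and each shares another group with the comparison above, so they are not independent of each other. Scaled by library size alone, the values against vehicle were -0.26 for Ppargc1a, -0.18 for Esrra, -0.18 for Opa1, -0.23 for Mfn2, and 0.37 for Nrf1, and each kept its call. Dnm1l gained a call with that scaling, at 0.15 (adjusted p = 0.00851 by edgeR).

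Esrra rose the most. In the 6 kidneys given cisplatin plus KW6002 it ranged from 99.2 to 128 CPM with a median of 119 CPM, above every cisplatin library. The log2 fold change against cisplatin was 0.63 (SE 0.07, adjusted p = 1.56e-07 by edgeR), and the level reached 79.3% of the vehicle mean. It was still below vehicle by 0.34 on the log2 scale, as a log2 fold change of -0.34 (SE 0.07, adjusted p = 3.40e-04 by edgeR), though the ranges overlapped. Ppargc1a ranged from 80.4 to 96.7 CPM with a median of 88.5 CPM. It lay above all cisplatin libraries, by a log2 fold change of 0.51 (SE 0.09, adjusted p = 3.13e-05 by edgeR), and at 74.7% of the vehicle mean (log2 fold change against vehicle -0.42, SE 0.09, adjusted p = 2.15e-04 by edgeR). Among mice of the label series that holds all cisplatin-treated mice, the log2 fold change of Ppargc1a against vehicle was -0.60 (SE 0.08). With the label series as a covariate it was -0.57 (SE 0.07), so both values lay farther below vehicle than -0.42. For Esrra, which was at -0.34 over all mice, both values were -0.30. The paralog of Ppargc1a did not follow. Ppargc1b ranged from 7.15 to 9.48 CPM with a median of 7.35 CPM, and 4 of its 6 libraries lay below every cisplatin library. The log2 fold change against cisplatin was -0.19 (95% interval -0.39 to 0.01, adjusted p = 0.0886 by edgeR), and the call is sensitive: without replicate 4 of cisplatin plus KW6002 the value was -0.25 with an adjusted p of 0.0273, and with scaling by library size alone it was -0.25 with an adjusted p of 0.0377. Against vehicle, Ppargc1b stood at -1.06 (SE 0.09, adjusted p = 2.32e-09 by edgeR), and it was the 1 member to pass the stricter threshold there, as did 13.4% of tested genes.

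Tfam and Sirt1 came nearest to vehicle. Tfam ranged from 45.5 to 56.5 CPM with a median of 51.1 CPM and was higher than with cisplatin (log2 fold change 0.33, SE 0.05, adjusted p = 1.58e-05 by edgeR). At 93.2% of the vehicle mean, its log2 fold change against vehicle of -0.10 did not pass (95% interval -0.21 to 0.01, adjusted p = 0.102 by edgeR). It did pass when vehicle replicate 5, the lowest vehicle library, was left out (-0.14, adjusted p = 0.0247), and without replicate 3 or replicate 6 of cisplatin plus KW6002 (-0.13 in both, adjusted p = 0.0417 and 0.0365). Sirt1 ranged from 26.8 to 30.8 CPM with a median of 28.8 CPM, above every cisplatin library (log2 fold change 0.35, SE 0.08, adjusted p = 6.08e-04 by edgeR). Its level of 92.7% of the vehicle mean gave a log2 fold change against vehicle of -0.11 (95% interval -0.27 to 0.05, adjusted p = 0.234 by edgeR). Among mice of the 500 series alone that value was -0.22 (adjusted p = 0.0376), and with the label series as a covariate it was -0.26 (adjusted p = 0.00305).

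Of the 5 regulators that rose, Opa1 had the narrowest spread between libraries (coefficient of variation 3.47%). It ranged from 134 to 148 CPM with a median of 138 CPM, higher than cisplatin by a log2 fold change of 0.39 (SE 0.04, adjusted p = 1.13e-07 by edgeR) and lower than vehicle by one of -0.33 (SE 0.04, adjusted p = 7.86e-07 by edgeR). All 6 libraries lay between the cisplatin and the vehicle libraries, with no overlap on either side. Mfn2, in contrast, ranged from 153 to 174 CPM with a median of 157 CPM. Its log2 fold change against cisplatin was 0.01 (95% interval -0.07 to 0.09, adjusted p = 0.771 by edgeR), an interval that does not reach the value of Opa1.

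Sirt3, Nrf1, and Dnm1l gave estimates near 0 for KW6002 added to cisplatin. Sirt3 ranged from 51.7 to 75.9 CPM with a median of 61.7 CPM, at 51.8% of the vehicle mean and in a range that covers that of the cisplatin libraries. Its log2 fold change against cisplatin was -0.01 (95% interval -0.20 to 0.17, adjusted p = 0.916), and against vehicle it was -0.95 (SE 0.09, adjusted p = 5.33e-09), both by edgeR. Nrf1 ranged from 20.3 to 24.7 CPM with a median of 22 CPM, so it stayed at 116% of the vehicle mean (log2 fold change against cisplatin -0.0024, 95% interval -0.15 to 0.14, adjusted p = 0.978; against vehicle 0.21, SE 0.07, adjusted p = 0.0112 by edgeR). The latter call was lost with the fat marker level as a covariate, where the value was 0.14 (adjusted p = 0.179). Dnm1l ranged from 90.9 to 101 CPM with a median of 98.6 CPM. Its 95% intervals were -0.10 to 0.09 against cisplatin and -0.11 to 0.08 against vehicle.

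Ppargc1b, Sirt3, Opa1, and Mfn2 were without overlap between cisplatin plus KW6002 and vehicle kidneys, which is 4 of 10 against 37.5% of all tested genes. In the 500 series alone, which leaves 2 vehicle and 3 KW6002 mice, each of the 9 members changed by cisplatin kept its direction and its call. The log2 fold changes there were -1.11 for Ppargc1a, -0.81 for Ppargc1b, -0.94 for Esrra, 0.26 for Nrf1, -0.39 for Tfam, -0.58 for Sirt1, -0.85 for Sirt3, -0.76 for Opa1, and -0.41 for Mfn2. For cisplatin plus KW6002 against cisplatin, where all 11 mice are of that series, the values were 0.51, 0.64, 0.33, 0.36, and 0.39 for Ppargc1a, Esrra, Tfam, Sirt1, and Opa1.

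KW6002 without cisplatin changed no member at an adjusted p below 0.05, with edgeR or with DESeq2. Across all genes it changed 3 with edgeR, 0.0175% of those tested, and 99 with DESeq2. At an unadjusted p below 0.05, 11.3% of tested genes and 1 member passed. That member was Ppargc1b, at 12 to 16.2 CPM with a median of 13.7 CPM in the KW6002 group and 82.8% of the vehicle mean (log2 fold change -0.27, SE 0.09, unadjusted p = 0.00729, adjusted p = 0.28 by edgeR). Its libraries overlapped with those of vehicle. The other 9 lay between -0.07 and 0.04 on the log2 scale, with 95% intervals that lay within -0.25 to 0.19.

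Whether KW6002 acted differently in cisplatin-treated and in other mice was tested as an interaction. The same 5 regulators passed, all positive, where 22.8% of tested genes had a positive difference past the test. The differences on the log2 scale were 0.60 for Esrra (SE 0.10, adjusted p = 6.03e-05), 0.58 for Ppargc1a (SE 0.12, adjusted p = 5.23e-04), 0.41 for Opa1 (SE 0.06, adjusted p = 1.25e-05), 0.38 for Sirt1 (SE 0.11, adjusted p = 0.00854), and 0.36 for Tfam (SE 0.07, adjusted p = 4.91e-04), all by edgeR. For Ppargc1b the difference was 0.08 (95% interval -0.20 to 0.36, adjusted p = 0.658), so a KW6002 effect that depends on cisplatin was not shown for it. Sirt3 and Nrf1 were at 0.01, and Mfn2 and Dnm1l at -0.02.

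Ratios of related members within a library do not depend on scaling between libraries, and are given as a description because the pairs were chosen after the values were seen. Ppargc1a had 4.42 ± 1.02 (SD, n = 5) times the length-corrected counts of Ppargc1b in vehicle kidneys and 4.19 ± 0.522 (n = 5) in cisplatin kidneys. With cisplatin plus KW6002 the ratio was 6.86 ± 0.781 (n = 6), and its libraries (5.65 to 7.84) did not overlap with those of cisplatin (3.75 to 4.99). Vehicle libraries ranged from 3.35 to 5.73, so that 1 of 5 reached the lower edge of the cisplatin plus KW6002 range, and KW6002 libraries (mean 5.06 ± 0.971, range 4.03 to 6.67) overlapped with all other groups. The Sirt1 to Sirt3 ratio was 0.288 ± 0.0407 with vehicle, 0.402 ± 0.0509 with cisplatin, and 0.52 ± 0.0657 with cisplatin plus KW6002, with overlap between neighbouring groups in this order, and 0.287 ± 0.0331 with KW6002. The Opa1 to Mfn2 ratio was 0.555 ± 0.0248 with vehicle, 0.442 ± 0.0171 with cisplatin, and 0.574 ± 0.0136 with cisplatin plus KW6002. With KW6002 it was 0.532 ± 0.0182. Cisplatin libraries (0.417 to 0.461) lay below all others, and those with KW6002 added (0.558 to 0.598) overlapped with vehicle (0.522 to 0.579). Opa1 to Dnm1l, a fusion gene against the fission gene, was 1.17 ± 0.05 with vehicle, 0.712 ± 0.0418 with cisplatin, and 0.939 ± 0.0448 with cisplatin plus KW6002, without overlap between these 3 groups; with KW6002 it was 1.14 ± 0.0295.

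**Figure D3:**
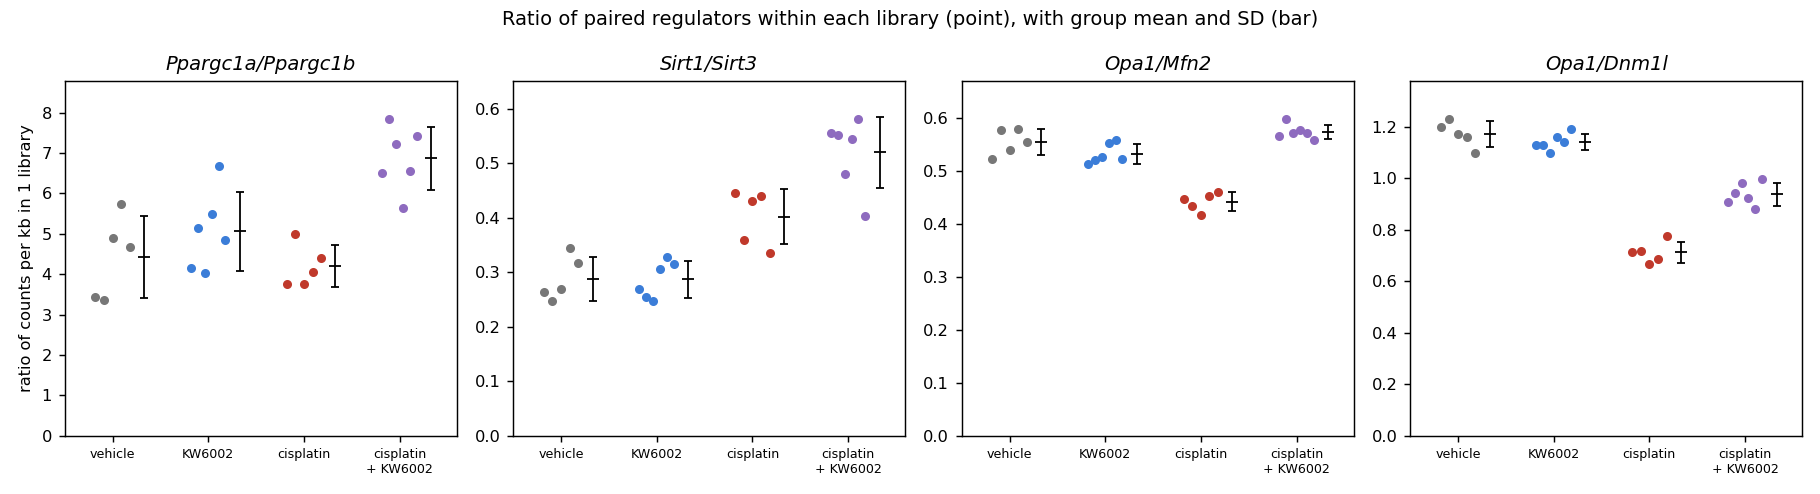
Ratio of length-corrected counts of paired regulators (vertical axis, from 0, no unit) in every library, by group; points are libraries and bars give mean and SD. The mean Ppargc1a/Ppargc1b ratio is highest with cisplatin plus KW6002 (5.65 to 7.84), while the Opa1/Dnm1l ratio is lowest with cisplatin (0.667 to 0.776).

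Genes around the 10 regulators were counted in 9 lists, and each count stands beside the shares of all tested genes. List counts, and those of cell type markers below, used TMM scaling and were not repeated with library size alone. With library size alone the median of all tested genes with cisplatin was 0.20, so calls of small falls can depend on scaling. With TMM scaling, 35.9% of all tested genes were lower and 34.6% higher with cisplatin, with a median log2 fold change of -0.01. With KW6002 added to cisplatin 28.6% were higher and 27.2% lower, with a median of 0.01. Among 18 partners of biogenesis, cisplatin raised 6 and lowered 6, near those shares, with a median log2 fold change of 0.01. Perm1, a regulator induced by PGC-1 and ERR and best known in muscle, fell the most (8.74 ± 2.85 CPM with vehicle, 0.453 ± 0.223 with cisplatin, log2 fold change -4.26), followed by the ERR family member Esrrg (-0.80). Ppara, the fatty acid receptor of the nuclear receptor family, rose from 98.9 ± 10.6 to 183 ± 9.97 CPM (0.89), and the GABP subunit gene Gabpb1 rose by 0.66. With KW6002 added, 6 of the 18 were higher and 4 lower than with cisplatin, Perm1 by 1.60 and Ppara by -0.59.

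Genes for the machinery of mitochondrial DNA moved mostly down. Of 19 genes for its maintenance and transcription, 13 fell with cisplatin and none rose (median -0.53), led by the nuclease gene Mgme1 (-0.93) and the mitochondrial termination factor gene Mterf2 (-0.92). With KW6002 added, 10 were higher and 2 lower than with cisplatin (median 0.17), among them Mterf2 by 0.31, a call lost without cisplatin replicate 1 (0.27, adjusted p = 0.0591) or replicate 3 (0.27, adjusted p = 0.0622). Mgme1 did not pass there (0.13, adjusted p = 0.225). Of the 13 mitochondrially encoded mRNAs, 12 were in the table and 7 were tested, and all 7 fell with cisplatin (median -1.21) and were higher with KW6002 added (median 0.89). For mt-Nd4, a complex I subunit, the levels were 9227.7 ± 518 CPM with vehicle, 2636.1 ± 336 with cisplatin, and 4977.2 ± 164 with cisplatin plus KW6002. For mt-Cytb of complex III they were 29486.8 ± 771, 8592.8 ± 1128.1, and 15924.2 ± 1513.9 CPM. The other 5 listed mRNAs, mt-Nd3, mt-Nd4l, mt-Co2, mt-Co3, and mt-Atp6, had at most 14 counts in any library and were not tested, so the 7 are the members of this list that this table can show.

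Genes for enzymes known as ERRα and PGC-1 targets fell broadly with exceptions. Of 18 tested, 13 fell and 3 rose with cisplatin (median -0.73). Sdha, a subunit of succinate dehydrogenase, went from 1119.9 ± 30.5 to 445 ± 34.7 CPM (log2 fold change -1.33), and Vegfa, an angiogenic target, fell by 1.32 on the log2 scale. The kinase gene Pdk4, which restrains pyruvate oxidation, rose from 65.8 ± 20.2 to 675 ± 34.7 CPM (3.36), and the uncoupling protein gene Ucp2 rose from 113 ± 16.9 to 570.4 ± 56.2 CPM (2.34), so these 2 moved against Esrra and Ppargc1a. With KW6002 added, 9 were higher and 4 lower than with cisplatin (median 0.15), Sdha by 0.64, Vegfa by 0.40, Pdk4 by -2.15, and Ucp2 by -1.91.

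Genes around the sirtuins split as well. Of 6 genes for SIRT3 substrates, cisplatin lowered 4, among them Acss1 (-1.73) and Idh2 (-1.60), and raised 2, among them Glud1 (1.21), for glutamate dehydrogenase. With KW6002 added, those 4 were higher than with cisplatin, Acss1 by 0.57 and Idh2 by 0.64, and Glud1 was lower (-0.66). Sirt3 itself had no such difference. Of 10 genes for other sirtuins and NAD supply, 6 fell and 3 rose with cisplatin (median -0.33). Parp1, an NAD consumer, fell by 0.67 and the mitochondrial sirtuin gene Sirt4 by 0.62, whereas Nampt, the salvage enzyme of NAD synthesis, rose from 232 ± 17.1 to 349.8 ± 41.4 CPM (0.59) and Sirt6 by 0.44. With KW6002 added, none of these 4 passed the test.

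Around OPA1 and MFN2, 11 of 12 genes for fusion and cristae fell with cisplatin (median -0.45), and 8 were higher with KW6002 added and none lower (median 0.24). The cristae genes Chchd6 (-1.33) and Immt (-0.89) fell the most and were higher with KW6002 added by 0.84 and 0.60. The exception was Parl, a rhomboid protease gene, at 0.15 with cisplatin, a call (adjusted p = 0.0412) that was lost among 500-series mice (0.06) and when any of 6 single libraries was left out, these being vehicle replicates 2 and 3 and cisplatin replicates 2, 3, 4, and 5 (0.12 to 0.15). Around DRP1, 6 of 11 fission genes rose and 4 fell (median 0.10). Inf2, an actin-assembling formin, rose from 12.7 ± 0.721 to 57 ± 9.41 CPM (2.17), Mtfr2 rose from a level of 0.353 ± 0.222 CPM (1.72), Mtfp1 fell from 24.2 ± 1.2 to 5.66 ± 0.735 CPM (-2.09), and the DRP1 adaptor gene Fis1 fell by 0.27. Of these, Fis1 did not pass with scaling by library size alone (-0.06, adjusted p = 0.392). With KW6002 added each of these 4 moved opposite to its change with cisplatin, Inf2 by -1.26, Mtfr2 by -1.26, Mtfp1 by 1.29, and Fis1 by 0.38.

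Of 10 mitophagy genes, the removal arm, 3 rose and 4 fell with cisplatin (median -0.07), near the shares of all tested genes. Pink1, a kinase gene of damage-induced mitophagy, went from 350.3 ± 19.1 to 193 ± 25.6 CPM (-0.86). The mitophagy receptor genes Bnip3 and Optn rose by 0.93 and 0.50. With KW6002 added, Pink1 was higher by 0.64, Bnip3 was lower (-0.53), and Optn did not pass the test (-0.10, adjusted p = 0.199).

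**Figure D4:**
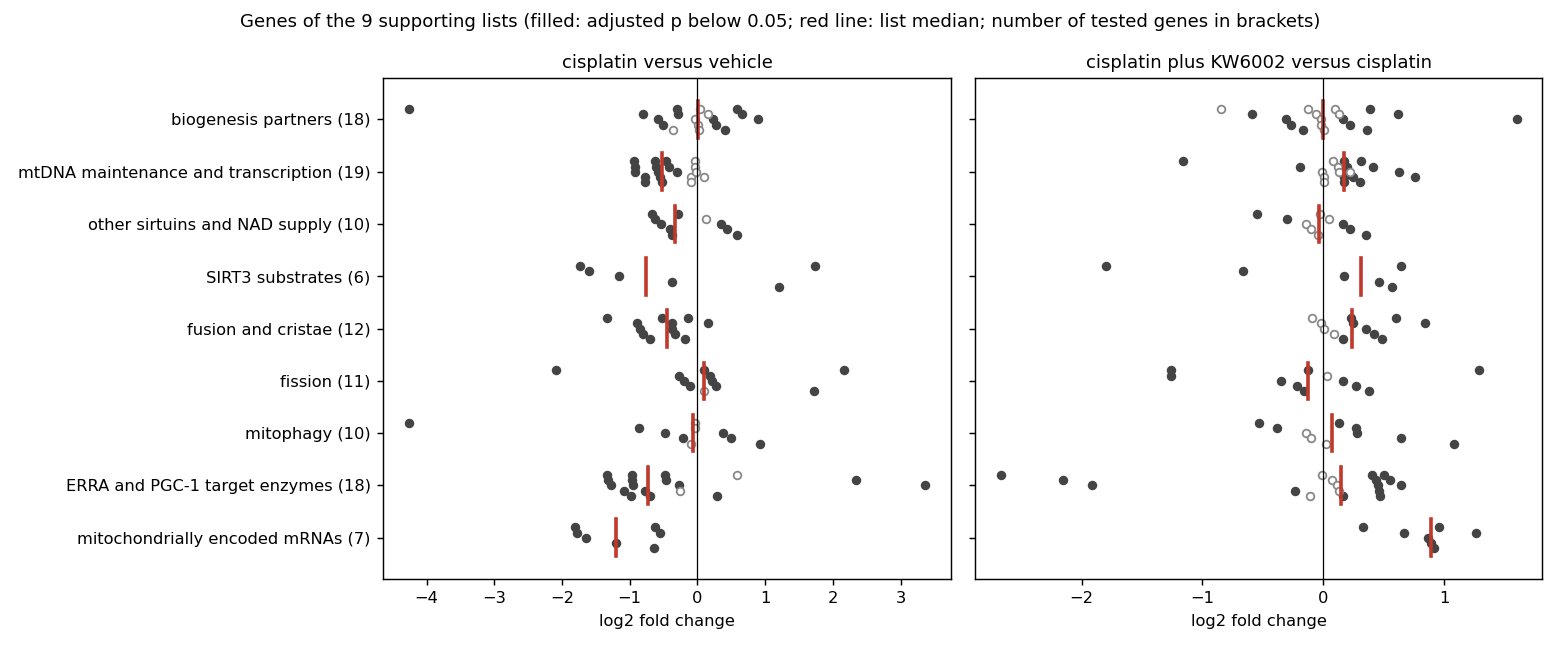
Log2 fold change (horizontal axes) of each tested gene in the 9 supporting lists with cisplatin against vehicle (left) and cisplatin plus KW6002 against cisplatin (right); filled points have an adjusted p below 0.05 and red lines mark list medians. The medians of the mitochondrially encoded mRNAs lie farthest from 0, at -1.21 and 0.89.

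Markers of kidney cell types moved in the same comparisons, where 35.9% of all tested genes were lower and 34.6% higher with cisplatin. With KW6002 added, 28.6% were higher and 27.2% lower. All 7 proximal tubule markers fell with cisplatin (median -2.66) and 6 were higher with KW6002 added (median 1.36); Lrp2, the endocytic receptor megalin, and the phosphate transporter gene Slc34a1 were among them, the latter at 7584.9 ± 499.5, 231 ± 202, and 3063.3 ± 806 CPM with vehicle, cisplatin, and both drugs. Of thick ascending limb markers, 4 of 4 fell (summed 4687.0 to 7752.5 CPM with vehicle and 2049.9 to 2365.0 with cisplatin), as did 3 of 3 markers of the distal convoluted tubule. Intercalated cell markers fell in 3 of 4, those of principal cells rose in 1 and fell in 1 of 4, and those of endothelium rose in 1 and fell in 1 of 4. All 4 fibroblast markers rose, from a summed 136 to 321 CPM with vehicle to 575 to 739.7 with cisplatin, and macrophage markers rose in 2 and fell in 2 of 4. Of 3 tested T cell markers 2 fell, from a summed 2.45 to 5.25 CPM to 0.91 to 1.61, and neither of 2 tested neutrophil markers passed. Muscle markers were at or near 0, at most 1.04 CPM in sum. Their part in the members' results was not tested.

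Fat markers need a value of their own because brown fat is rich in Ppargc1a, Ppargc1b, and Esrra. The 4 markers, Adipoq, Plin1, Ucp1, and Cidea, summed to between 38.3 and 357 CPM with vehicle, 3.37 and 160.0 with KW6002, 57.8 and 164 with cisplatin, and 0.753 and 63.8 with cisplatin plus KW6002. All 4 were lower with cisplatin plus KW6002 than with cisplatin, and 1, Ucp1, was lower with cisplatin than with vehicle. With their summed log2 level as a covariate, added after the data were seen, the log2 fold changes for cisplatin were -0.94, -0.86, and -0.97 for Ppargc1a, Ppargc1b, and Esrra. For KW6002 added to cisplatin they were 0.42 for Ppargc1a, -0.10 for Ppargc1b, and 0.61 for Esrra.

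Genes whose levels followed each member most closely over the 22 libraries were named from the 10430 genes whose log2 CPM averaged 3 or more, by Pearson's r of log2 CPM as a description. These r values share the group differences, library composition, and scaling of the same 22 libraries. Nearest to Opa1 were Hps5 (r = 0.992), Dld (0.990), and Lrpprc (0.989), and nearest to Mfn2 were Ace (0.988), Acss2 (0.984), and Kap (0.984). Ppargc1a had Myo6 (0.984), Ppat (0.972), and Rap1gap (0.971) as nearest genes, and Ppargc1b had Plcg2 (0.939), Slc12a7 (0.938), and Tinag (0.932). For Esrra they were 4833439L19Rik (0.983), Dmtn (0.981), and Mgat3 (0.981), for Sirt3 Dram2 (0.984), Suox (0.982), and D630029K05Rik (0.981), and for Tfam Hpd (0.954), Asl (0.952), and Man2b1 (0.947). Lower values were found for Sirt1, with Wdfy1 (0.915), Prpf8 (0.912), and Stx5a (0.912), for Nrf1, with Ncoa6 (0.874), Pithd1 (0.871), and Zfp280d (0.854), and for Dnm1l, with Dpp8 (0.814), Hecw2 (0.776), and Usp34 (0.723).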

How the data were processed

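Poly-A RNA of 22 kidneys was sequenced from stranded libraries. The deposited values are counts, whole reads per gene, which the authors made with STAR 2.5.3a on mm10 and HTSeq 0.6.1p1 and left unnormalized; whether counting used strand is not given in the sources used here. Another 66 unnamed columns held no value and were not used. Symbols, positions, and exon lengths came from GENCODE M21, and promoter windows from RefSeq GRCm38.p6. Genes were kept by filterByExpr (a minimum of 10 counts, set at the median library size, in 5 or more libraries, and a total of 15), and 17131 were tested with edgeR 4.0.16 in R 4.3.3, with TMM scaling and 4 group means over all 22 libraries. CPM used TMM-scaled library sizes. SE were taken from the F statistic. DESeq2 1.42.0 was an alternative. The steps were tested on simulated data with 200 changed genes. That is far fewer than changed with cisplatin here, so the simulation did not test the choice of scaling. Mice are separate animals, so p-values measure spread between mice. Whether the label series mark separate experiments is not stated, so that spread may include differences between the series. All cisplatin-treated mice were of the same series, whereas the vehicle and KW6002 groups were mixed. Sequencing depth was 26471762 to 40510754 counts, and intervals cover no library preparation error beyond the spread between mice.

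The members and lists were chosen with earlier results of these data known. Genes named beside the members were the 2 largest rises and 2 largest falls with cisplatin in each list, the 3 genes nearest each member, and up to 2 markers per marker list; a few genes that this rule includes are not reported here. Alternatives were DESeq2, other scaling, no filter or a stricter filter, only the groups compared, a replicate block, the label series as a covariate, the 500 series alone, the study's stricter threshold, and leaving out each library; the fat marker covariate was added after seeing the data.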

Additional observations from a re-analysis of the deposited data

Results flagged for a closer look

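KW6002 acted differently with and without cisplatin on 5 regulators, by the interaction test over 22 libraries: Ppargc1a by 0.58 on the log2 scale, Tfam by 0.36, Esrra by 0.60, Sirt1 by 0.38, and Opa1 by 0.41. In each of the 5 the KW6002 effect was near 0 without cisplatin and positive with it. Over all tested genes, 22.8% had a positive difference past the same test.

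In 6 of 40 groups of a member's values, 1 library stood apart from the others by Dixon's criterion, which chance does in about 1 of 20 groups. Tfam was low in vehicle replicate 5 (49.4 CPM) and in KW6002 replicate 3 (51.5 CPM). Esrra was high in cisplatin replicate 5 (87.8 CPM), where the other 4 libraries lay between 71.7 and 72.8 CPM. Replicate 6 of cisplatin plus KW6002 was high for both Opa1 (148 CPM) and Mfn2 (174 CPM), and replicate 3 of that group was low for Dnm1l (90.9 CPM).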

How the results depend on the processing

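Of 80 values past the threshold, in 2551 alternatives, none reversed, 2535 kept direction and call, and 16 lost the call, all of Parl, Mterf2, Fis1, or Nrf1. Values not past the threshold gained a call 7 times with a library left out and 8 times under other settings. The number of changed members stayed at 9 (cisplatin), and at 5 (difference of KW6002 effects), and ran from 5 to 6 and from 7 to 8 in the other comparisons when libraries were left out, and stayed at 0 for KW6002 alone. Under the stricter threshold it was 0 for cisplatin, 0 for KW6002 added, 1 for both drugs against vehicle, and 0 for the difference. The labels do not say that replicate numbers pair the mice, and the correlations of same-number libraries did not settle it. Of 31 same-number pairs, 7 correlated over 0.1 (range -0.175 to 0.405), and in 10 of the 31 the pair was the best match. How many best matches chance would give was not computed. With the replicate as a block, counts of changed members were 9, 5, 7, 0, and 5, and the calls of Parl (0.15) and Mterf2 (0.27) were lost. Sign changes occurred only among values that did not pass the test with the main settings. For Dnm1l with cisplatin the value was 0.01 with DESeq2, 0.0030 with relative log expression factors, and 0.0011 with only the groups compared. With library size only it was 0.21 (adjusted p = 3.93e-04 by edgeR), a gained call. For both drugs against vehicle, Dnm1l was 0.15 with library size only (adjusted p = 0.00851 by edgeR), also a gained call. For KW6002 added, Dnm1l was 0.0021 with no filter. For KW6002 added, Nrf1 was 0.01 with no filter, 0.02 with the block, and 0.0017 in the 500 series, Mfn2 was -0.05 with library size only and -0.0010 with the block, Parl was -0.05 with library size only, -0.0025 with the stricter filter, and -0.02 with the fat covariate, and Parp1 was -0.01 with library size only. Against vehicle with both drugs, Tfam and Sirt1 were 0.05 with library size only. Leaving out libraries, the ranges were -0.04 to 0.02 (Dnm1l, cisplatin), -0.02 to 0.01 (Dnm1l, KW6002 added), -0.05 to 0.01 (Dnm1l, both drugs against vehicle), -0.06 to 0.04 (Nrf1), -0.08 to 0.04 (Sirt3), -0.02 to 0.03 (Mfn2), and -0.03 to 0.03 (Parl), the last 4 for KW6002 added. The cause of these moves was not tested. Depth did not limit the members, but within the 500 series only 2 vehicle and 3 KW6002 mice could be set against cisplatin, and counts carry no information on protein or organelle number.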
